A study of Mus musculus with 6 samples.

Results

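A set of 6 genes of the early embryonic state was followed across all 6 libraries of a study of mouse mesoderm progenitor cells: Lin28a, Lin28b, Hmga2, Igf2bp1, Sall4 and Dnmt3b. They were chosen by name, and all 6 were found among the 19342 gene names of the deposited table and among the 13993 genes analysed. The cells were C57BL/6 mesoderm progenitor cells, and total RNA was sequenced from 1 library per condition. The untreated libraries were taken at 0 h and at 96 h in culture. The others carried a growth factor label and were taken at 101 h (rhBMP4 with rhFGF8, and rhBMP4 alone, each 5 h) or at 107 h (rhBMP4 with rhFGF4, and rhBMP4 alone, each 11 h). The labels place the addition of growth factor at 96 h. Per the labels' protocols, the cells shared medium with 10% serum and a feeder layer of C57BL/6 embryonic fibroblasts whose division was blocked with mitomycin C. How many embryos or cultures stand behind a library, and whether feeder cells were removed before RNA extraction, is not given in the sources used here.

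LIN28A and LIN28B are RNA-binding proteins that bind precursors of the let-7 microRNAs and block their maturation. Mature let-7 in turn represses target mRNAs through sites in their 3′ UTRs, and Hmga2, Igf2bp1 and both Lin28 genes are known targets. HMGA2 is a chromatin protein of embryonic and mesenchymal cells, IGF2BP1 an RNA-binding protein of embryonic tissues, SALL4 a zinc-finger transcription factor of pluripotent and axial progenitor cells, and DNMT3B a de novo DNA methyltransferase.

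The let-7 family is shown because both Lin28 genes act on it and several of the 6 genes are its known targets. The mature 5p sequences below are from RefSeq (GRCm38.p6), written 5′ to 3′, with the seed (bases 2 to 8) in capitals. All 9 share 1 seed, and they differ outside it.
mmu-let-7a-5p: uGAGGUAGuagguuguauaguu
mmu-let-7b-5p: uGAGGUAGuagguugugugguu
mmu-let-7c-5p: uGAGGUAGuagguuguaugguu
mmu-let-7d-5p: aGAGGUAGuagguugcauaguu
mmu-let-7e-5p: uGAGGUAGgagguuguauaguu
mmu-let-7f-5p: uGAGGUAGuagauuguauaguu
mmu-let-7g-5p: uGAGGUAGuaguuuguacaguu
mmu-let-7i-5p: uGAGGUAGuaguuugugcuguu
mmu-miR-98-5p: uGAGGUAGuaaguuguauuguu

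The capitals of the sites below are CTACCTC, the 7 letters that pair with that seed. They were searched on the sense strand of the longest annotated 3′ UTR of each gene (GENCODE M21, GRCm38). One site is given for each gene that holds the motif, with 23 bases of transcript sequence.
Lin28a chr4:134005189-134005211 (-): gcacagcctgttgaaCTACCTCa
Lin28b chr10:45381022-45381044 (-): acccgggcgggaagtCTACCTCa
Hmga2 chr10:120364224-120364246 (-): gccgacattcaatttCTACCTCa
Igf2bp1 chr11:95961778-95961800 (-): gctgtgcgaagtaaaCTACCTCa
Sall4 chr2:168748940-168748962 (-): agggctttaatttatCTACCTCa

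The 3′ UTR of Lin28a held 2 such matches, those of Lin28b, Hmga2 and Igf2bp1 held 4 each, that of Sall4 held 1 and that of Dnmt3b held none. Over 20592 genes with an annotated 3′ UTR, 9.12% held at least 1 match. Among 3′ UTRs of 0.8 to 1.25 times the length of the gene's own, 2.04% held as many matches as Lin28a, 0.223% as many as Lin28b, 0.0829% as many as Hmga2, 0.167% as many as Igf2bp1 and 11.4% as many as Sall4. For UTRs of the length of Dnmt3b, 9.37% held a match. A match describes the letters only, and let-7 itself was not measured, since these are gene counts of total RNA.

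Total counts ran between 179196459 and 272743104 per library. Values are library-scaled counts (CPM, edgeR's counts on a common depth) scaled by TMM library sizes, and all intervals are 95% and cover counting error only. The growth factor columns of the table were out of register with the gene names and were placed on them by alignment, described in the processing account. Both 5 h libraries resembled the 0 h library more than the 96 h library that precedes them by label. Across genes, log2 counts of BMP4 with FGF8 5 h had r = 0.992 with 0 h untreated and 0.968 with 96 h untreated, and those of BMP4 5 h had r = 0.991 and 0.965. Placement itself favours similar levels, so these r values only describe the columns. The labelled cell type was checked with 10 tailbud progenitor markers, of which 8 could be placed (T, Tbx6, Msgn1, Fgf17, Hes7, Dll3, Nkx1-2 and Wnt3a). Their summed level was 288 CPM at 0 h, 16.5 CPM at 96 h, 254 CPM with BMP4 and FGF8 for 5 h, 259 CPM with BMP4 for 5 h, 30.3 CPM with BMP4 and FGF4 for 11 h and 127 CPM with BMP4 for 11 h. None was at 0 counts in any library, but 4 were under 1 CPM at 96 h, including the defining factors Tbx6 and Msgn1, so the 96 h library held little RNA of these markers. Summed levels of 10 fibroblast markers ran the other way, at 184 CPM at 0 h and 838 CPM at 96 h. They were 244 CPM with BMP4 and FGF8, 278 CPM with BMP4 for 5 h, 1255 CPM with BMP4 and FGF4, and 524 CPM with BMP4 for 11 h. Members of this list differed in direction. At 96 h over 0 h 7 of 10 were called higher, but Thy1 (0.424 CPM, against 0.665 CPM) and Fbln2 (14.8 CPM, against 24.7 CPM) were lower. In BMP4 5 h over 96 h 5 were called lower, and Thy1, Fbln2 and Lox were called higher, against 5.65% of all genes in either direction. Red blood cell markers, of which 7 of 8 were placed, summed to 15.4 CPM at 0 h, 3110 CPM at 96 h, 109 CPM with BMP4 and FGF8, 20.7 CPM with BMP4 for 5 h, 1990 CPM with BMP4 and FGF4, and 2939 CPM with BMP4 for 11 h. The sums of 6 endothelial markers were 7.31 to 7.69 CPM at 0 h and 5 h and 39.8 to 128 CPM at 96 h and 11 h, and those of 5 lateral plate markers were 9.12 to 11.02 CPM at 0 h and 5 h and 48.3 to 91.3 CPM at 96 h and 11 h. By these sums too, both libraries labelled 5 h lay nearer to 0 h than to 96 h, and the tailbud sum with BMP4 for 11 h lay between. Single markers did not all follow. In BMP4 5 h over 0 h, 5 of 10 fibroblast markers (Lum, Postn, Dcn, Thy1 and Lox) were called higher by the 2-fold rule given below. The share of all genes called there was 0.586% in either direction. Whether the time labels and the order of the columns are right cannot be told from the table, so values of these 2 libraries are those of the libraries labelled BMP4 5 h and BMP4 with FGF8 5 h. The part of the other cell types in the values of the 6 genes was not tested. In bulk RNA, fewer cells of a type and less RNA per cell cannot be told apart.

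All 6 genes were expressed in every library, in levels that differed more between genes than between libraries. Per kilobase of exon, Lin28a averaged 49.7 CPM and Hmga2 49.0 CPM over the 6 libraries, Igf2bp1 21.1, Sall4 16.2, Lin28b 8.40 and Dnmt3b 7.04. The highest library exceeded the lowest 2.57-fold for Sall4, 1.69-fold for Lin28a, 1.33-fold for Dnmt3b, 1.21-fold for Lin28b, 1.20-fold for Igf2bp1 and 1.19-fold for Hmga2, and the median over all 13993 genes was 1.27-fold. Only Sall4 therefore varied past 2-fold among the 6.

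**Figure D1:**
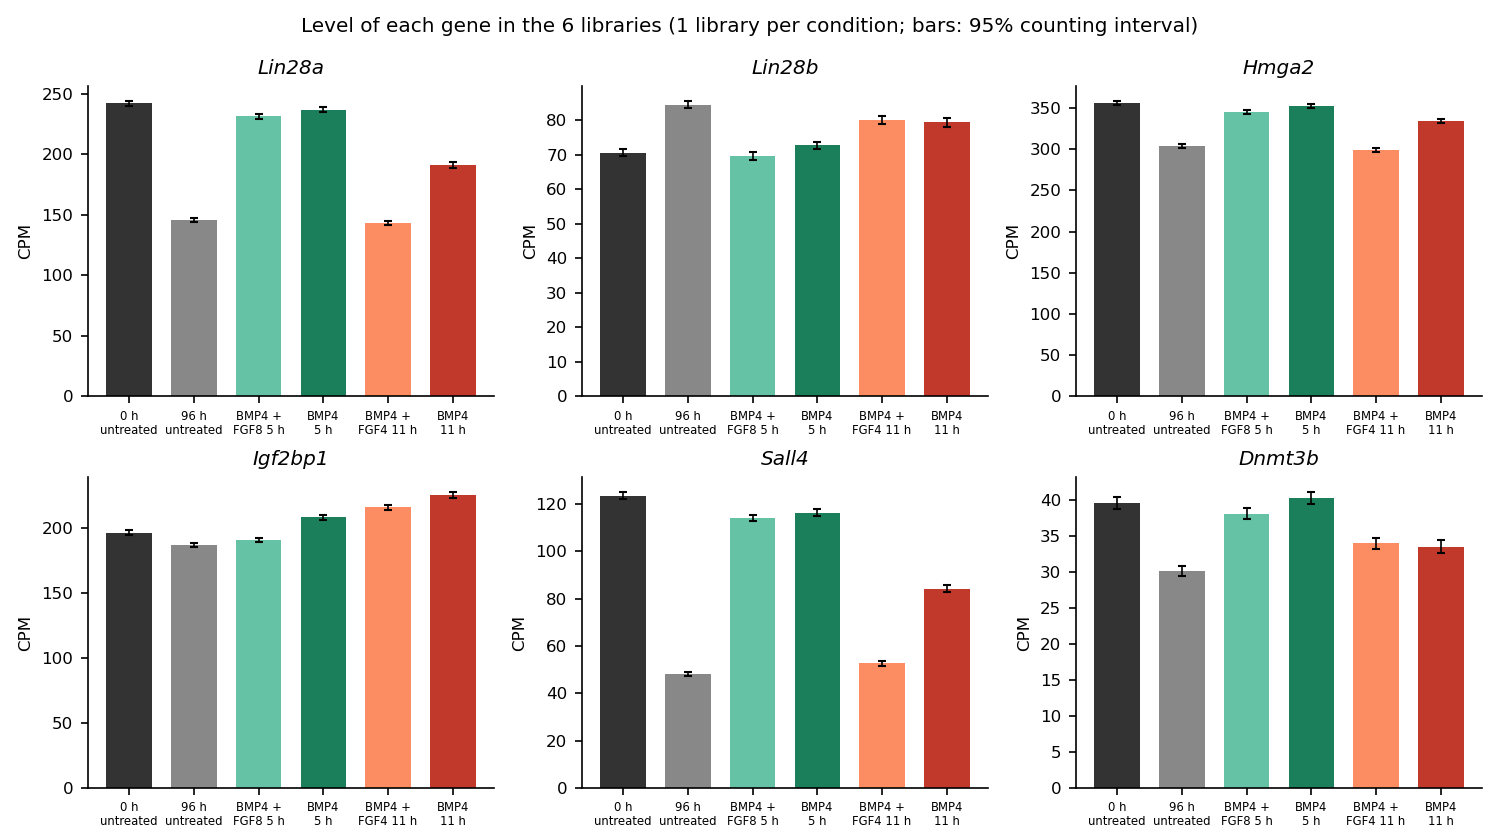
Level of each gene in CPM in each of the 6 libraries, 1 library per condition, with bars for the level and 95% counting intervals as error bars. Sall4 spans 48.2 to 124 CPM and Lin28a 143 to 242 CPM, while Hmga2, Igf2bp1 and Lin28b vary by no more than 1.21-fold.

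Lin28a (ENSMUSG00000050966.9, GRCm38 chromosome 4, 134003330 to 134018841, minus strand) had 242 CPM at 0 h, 146 CPM at 96 h, 232 CPM with BMP4 and FGF8 for 5 h, 237 CPM with BMP4 for 5 h, 143 CPM with BMP4 and FGF4 for 11 h and 191 CPM with BMP4 for 11 h. The 0 h library and both 5 h libraries were high, the 96 h library and the library with FGF4 were low and had overlapping counting intervals, and BMP4 at 11 h lay between. The ratio of 96 h untreated over 0 h untreated was 0.603 (95% counting interval 0.595 to 0.611), a log2 ratio of -0.73, short of the 2-fold size used for calls.

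Lin28b (ENSMUSG00000063804.8, chromosome 10, 45376620 to 45486395, minus strand), the paralogue of Lin28a, had 70.6 CPM at 0 h, 84.5 CPM at 96 h, 69.6 CPM with BMP4 and FGF8 for 5 h, 72.7 CPM with BMP4 for 5 h, 80.1 CPM with BMP4 and FGF4 for 11 h and 79.4 CPM with BMP4 for 11 h. It was high in the 96 h and 11 h libraries, and low in the 0 h and 5 h libraries. The ratio of 96 h untreated over 0 h untreated was 1.20 (1.17 to 1.22), a log2 ratio of 0.26.

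The 2 Lin28 genes thus stood in different proportions in different libraries. Per kilobase of exon, the level of Lin28a was 7.78 times that of Lin28b at 0 h, 3.92 times at 96 h, 7.55 times with BMP4 and FGF8 for 5 h, 7.40 times with BMP4 for 5 h, 4.05 times with BMP4 and FGF4 for 11 h and 5.47 times with BMP4 for 11 h. The proportion was highest where the tailbud markers were highest, and lowest where they were lowest. Their part in the difference was not tested.

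**Figure D2:**
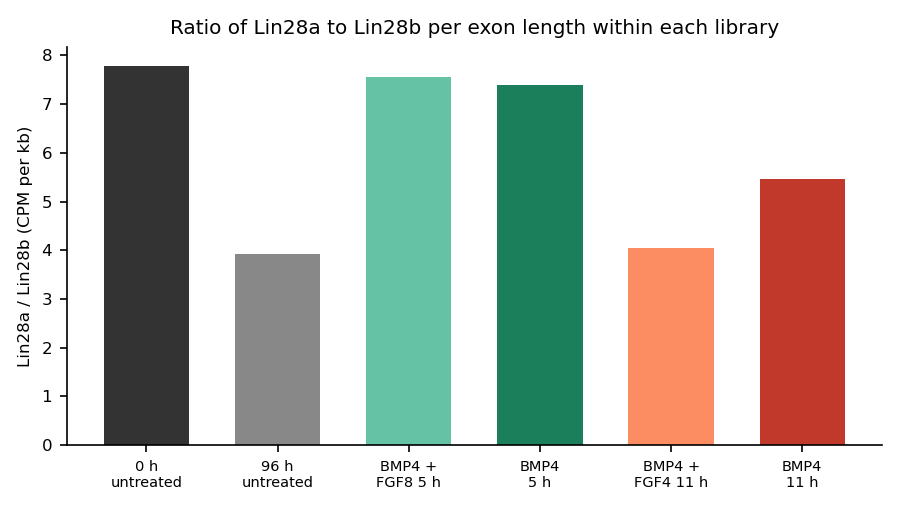
Ratio of the Lin28a level to the Lin28b level, in CPM per kilobase of exon, in each of the 6 libraries. The ratio is 7.78 at 0 h and between 7.40 and 7.55 in both 5 h libraries, and lowest at 96 h (3.92) and with BMP4 and FGF4 for 11 h (4.05).

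Sall4 (ENSMUSG00000027547.17, chromosome 2, 168748332 to 168767943, minus strand) had 124 CPM at 0 h, 48.2 CPM at 96 h, 114 CPM with BMP4 and FGF8 for 5 h, 116 CPM with BMP4 for 5 h, 52.6 CPM with BMP4 and FGF4 for 11 h and 84.3 CPM with BMP4 for 11 h. The libraries split as for Lin28a, with a wider gap. Over 96 h untreated, the BMP4 5 h library had a ratio of 2.42 (2.37 to 2.47), and it is called. Over 0 h untreated, the 96 h library had a ratio of 0.390 (0.382 to 0.398), which is called too.

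Hmga2 (ENSMUSG00000056758.14, chromosome 10, 120361275 to 120476469, minus strand) had 356 CPM at 0 h, 304 CPM at 96 h, 345 CPM with BMP4 and FGF8 for 5 h, 353 CPM with BMP4 for 5 h, 299 CPM with BMP4 and FGF4 for 11 h and 334 CPM with BMP4 for 11 h. The order was that of Lin28a, but within 1.19-fold. Dnmt3b (ENSMUSG00000027478.15, chromosome 2, 153649450 to 153687730, plus strand) had 39.6 CPM at 0 h, 30.1 CPM at 96 h, 38.1 CPM with BMP4 and FGF8 for 5 h, 40.2 CPM with BMP4 for 5 h, 34.0 CPM with BMP4 and FGF4 for 11 h and 33.5 CPM with BMP4 for 11 h. It too was high at 0 h and 5 h and low at 96 h, with the 11 h libraries between and overlapping in their intervals.

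Igf2bp1 (ENSMUSG00000013415.9, chromosome 11, 95957163 to 96005940, minus strand) had 196 CPM at 0 h, 187 CPM at 96 h, 191 CPM with BMP4 and FGF8 for 5 h, 208 CPM with BMP4 for 5 h, 216 CPM with BMP4 and FGF4 for 11 h and 225 CPM with BMP4 for 11 h. It was highest in both 11 h libraries and lowest at 96 h, and no neighbours in its order had overlapping intervals.

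**Figure D3:**
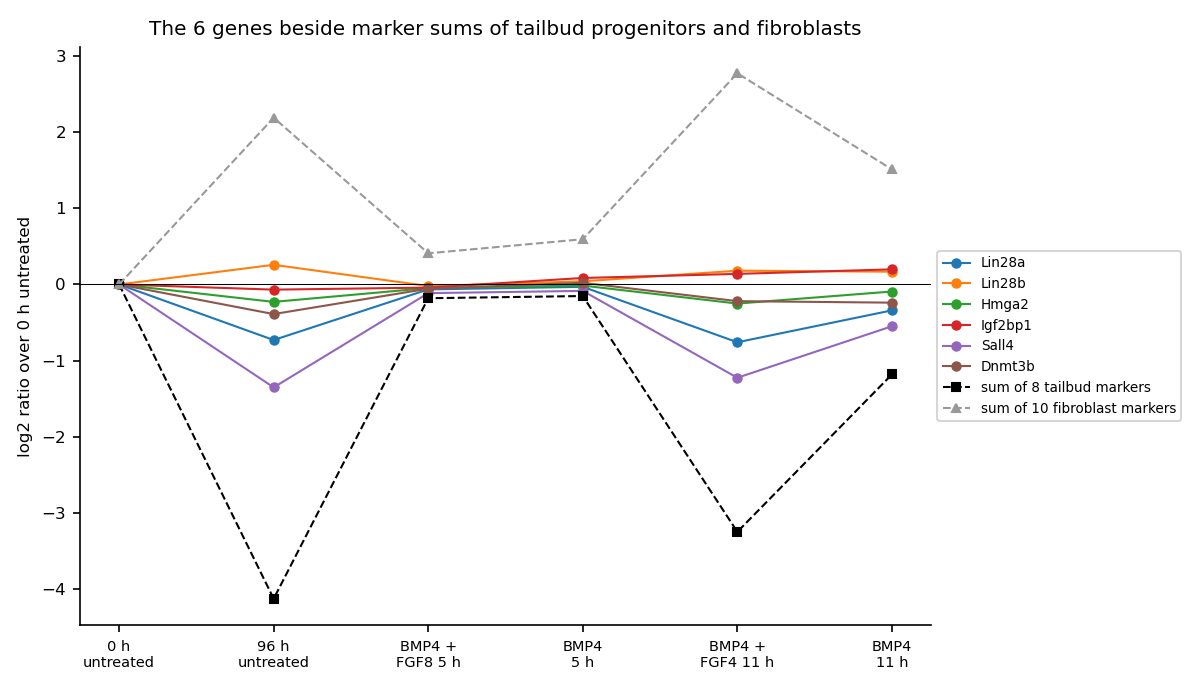
Log2 ratio of each library over 0 h untreated for the 6 genes and for the summed tailbud and fibroblast markers, with lines joining the values of 1 gene or marker sum. Sall4 lies at -1.35 and the tailbud sum at -4.12 in the 96 h library, where the fibroblast sum lies at 2.19.

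Between the libraries labelled 0 h and 96 h untreated, the 6 genes differed in the size and direction of their ratios. The part of culture, and that of cell make-up, in these ratios was not tested. Sall4 was lower at 96 h (log2 ratio of 96 h over 0 h -1.35). The others had log2 ratios of -0.73 for Lin28a, -0.39 for Dnmt3b, -0.23 for Hmga2, -0.07 for Igf2bp1 and 0.26 for Lin28b. A gene was called where its log2 ratio, taken after adding 0.5 CPM to both values, reached 2-fold and the counting interval of the plain ratio excluded 1. By this rule 1 of the 6 was called, against 6.27% of all genes analysed in either direction and 2.35% lower. Their median log2 ratio was -0.31, and that of all genes was 0.00. In the same comparison 8 of 8 tailbud markers were called lower, and 7 of 10 fibroblast, 7 of 7 red blood cell, 6 of 6 endothelial and 5 of 5 lateral plate markers were called higher. With 1 library per condition the ratio carries no p-value, and a second culture could give another value.

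In the library labelled BMP4 5 h, Sall4 was called higher than at 96 h untreated (log2 ratio 1.27). Beside it, the tailbud marker sum was 259 CPM in the library labelled BMP4 5 h, against 16.5 CPM at 96 h, and the red blood cell marker sum was 20.7 CPM, against 3110 CPM at 96 h. Lin28a had a log2 ratio of 0.70, Dnmt3b 0.41, Hmga2 0.21, Igf2bp1 0.15 and Lin28b -0.22. This is 1 of 6 called, against 5.65% of all genes in either direction and 2.32% higher, and the median of the 6 was 0.31, against -0.01 for all genes. Against 0 h untreated, the same BMP4 5 h library had log2 ratios of -0.03 for Lin28a, 0.04 for Lin28b, -0.01 for Hmga2, 0.08 for Igf2bp1, -0.08 for Sall4 and 0.02 for Dnmt3b, and 0 of 6 were called, against 0.586% of all genes. The BMP4 5 h library is shared by these comparisons, and the 96 h library by those above and below.

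After 11 h of BMP4, against 96 h untreated, 0 of 6 were called, against 2.94% of all genes. The log2 ratios were 0.80 for Sall4, 0.39 for Lin28a, 0.27 for Igf2bp1, 0.15 for Dnmt3b, 0.14 for Hmga2 and -0.09 for Lin28b. Against BMP4 5 h, the 11 h library had log2 ratios of -0.46 for Sall4, -0.31 for Lin28a, -0.26 for Dnmt3b, -0.08 for Hmga2, 0.11 for Igf2bp1 and 0.13 for Lin28b, and 0 of 6 were called, against 3.02% of all genes. Beside this, the tailbud marker sum was 127 CPM with BMP4 for 11 h, against 259 CPM with BMP4 for 5 h, and the red blood cell sum was 2939 CPM with BMP4 for 11 h, against 20.7 CPM with BMP4 for 5 h. Their part in the values was not tested.

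**Figure D4:**
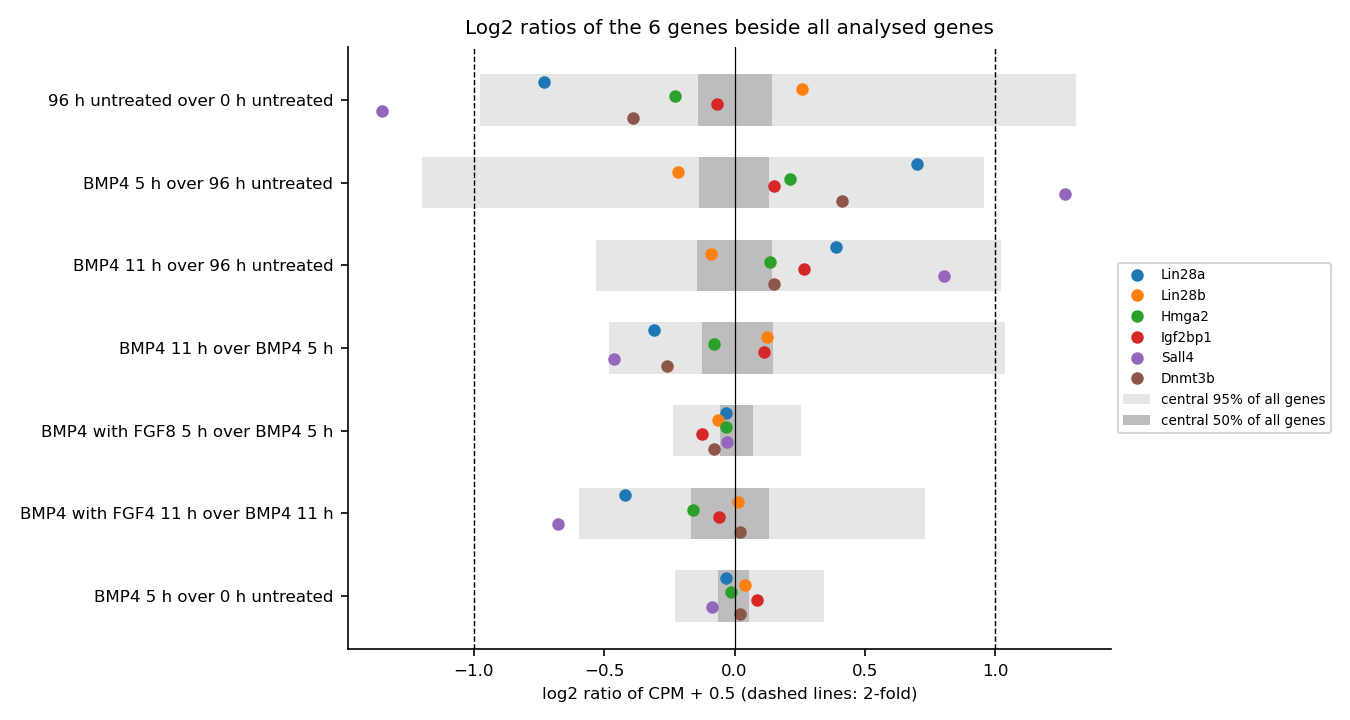
Log2 ratios of the 6 genes (points) in 7 comparisons between 2 libraries, over grey bands that hold the central part of all genes analysed, with dashed lines at 2-fold. Sall4 passes the limit at 96 h over 0 h (-1.35) and BMP4 5 h over 96 h (1.27), and no other value does.

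FGF8 beside BMP4 for 5 h gave values close to those of BMP4 alone, with log2 ratios between -0.13 (Igf2bp1) and -0.03 (Sall4), and 0 of 6 called, against 0.272% of all genes. FGF4 beside BMP4 for 11 h gave wider differences: log2 ratios of -0.68 for Sall4, -0.42 for Lin28a, -0.16 for Hmga2, -0.06 for Igf2bp1, 0.02 for Dnmt3b and 0.01 for Lin28b. The counting intervals of the last pair of ratios held 1 (0.979 to 1.05 for Dnmt3b and 0.986 to 1.03 for Lin28b). Again 0 of 6 were called, against 1.97% of all genes. Sall4 had 52.6 CPM with BMP4 and FGF4, against 84.3 CPM with BMP4 alone, and the tailbud marker sum was 30.3 CPM with BMP4 and FGF4, against 127 CPM with BMP4 alone. Its part in the values was not tested. The 2 FGFs were given for different times, so the difference between them was not tested.

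The only contrast with 2 libraries on each side was 11 h against 5 h across the 4 BMP4 libraries. It joins FGF and no-FGF libraries at each time, so they are not replicates and any FGF effect counts as spread. The FGF also differed between the times, with FGF8 at 5 h and FGF4 at 11 h. The part of this difference was not tested. None of the 6 genes passed edgeR's quasi-likelihood test with Benjamini-Hochberg adjustment, against 2.49% of all genes. Sall4 averaged 68.5 CPM at 11 h and 115 CPM at 5 h (log2 fold change -0.75, adjusted p = 0.132 by edgeR), and Lin28a averaged 167 CPM at 11 h and 234 CPM at 5 h (log2 fold change -0.49, adjusted p = 0.143 by edgeR). The other adjusted p-values by edgeR were 0.141 for Dnmt3b, 0.218 for Lin28b, 0.366 for Igf2bp1 and 0.430 for Hmga2. Unadjusted p-values by edgeR were 0.0267 for Lin28a, 0.0222 for Sall4 and 0.0259 for Dnmt3b. In all 6 genes the 2 libraries at 11 h and the 2 at 5 h did not overlap, as in 61.2% of all genes. DESeq2, which called 14.5% of all genes, called Lin28a (adjusted p = 0.0158) and Sall4 (adjusted p = 0.00519).

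Of 13 let-7 processing and decay genes, 0 were called in any of the 7 comparisons between 2 libraries, against 0.272% to 6.27% of all genes per comparison. Trim25, an RNA-binding ubiquitin ligase that aids the tagging of let-7 precursors, had 5.62 CPM at 96 h, against 3.37 CPM at 0 h. Msi1, an RNA-binding protein, had 44.3 CPM at 96 h, against 49.9 CPM at 0 h, and Zcchc11, a uridylyl transferase that tags let-7 precursors, had 94.5 CPM at 96 h, against 84.0 CPM at 0 h. These are the largest ratios of the list. Of 15 let-7 genes and host genes, 3 were analysed. Mirlet7g had 1.72 CPM at 96 h, against 1.57 CPM at 0 h, and Mirlet7f-2 had 1.55 CPM at 96 h, against 1.67 CPM at 0 h. Mir98 had 1.57 CPM at 96 h, against 1.69 CPM at 0 h. The row placed on Mir98 in the BMP4 5 h column holds 1 count, with a placement margin of 7.965 units, and may not be its own row, so no ratio is drawn from it. Reads at a let-7 gene do not measure the mature microRNA.

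Of 24 other let-7 target genes, 1 was called at 96 h over 0 h, against 6.27% of all genes in either direction and 2.35% lower. Arid3b, a DNA-binding protein, fell: it had 48.1 CPM at 96 h, against 117 CPM at 0 h (log2 ratio -1.27), and was called higher in the library labelled BMP4 5 h (114 CPM, against 48.1 CPM at 96 h untreated, log2 ratio 1.24). Igf1r, the IGF receptor, had 54.4 CPM at 96 h, against 102 CPM at 0 h, and Mycn, a transcription factor of embryonic progenitors, had 56.9 CPM at 96 h, against 92.3 CPM at 0 h, and neither reached 2-fold. The median log2 ratio of the list at 96 h over 0 h was -0.04, against 0.00 for all genes. Myc passed edgeR's test of 11 h over 5 h, at an average of 47.2 CPM at 11 h and 28.7 CPM at 5 h (log2 fold change 0.72, adjusted p = 0.0247 by edgeR).

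Paralogues of the 6 genes were measured in 7 cases. At 96 h over 0 h 2 of them were called lower, against 2.35% of all genes. In BMP4 5 h over 96 h 2 were called higher, against 2.32% of all genes. Sall1, another SALL zinc-finger factor, fell at 96 h (54.6 CPM, against 191 CPM at 0 h) and was called higher in the library labelled BMP4 5 h (179 CPM, against 54.6 CPM at 96 h untreated), and Sall3 fell at 96 h (15.4 CPM, against 42.5 CPM at 0 h) and was called higher in the library labelled BMP4 5 h (42.4 CPM, against 15.4 CPM at 96 h untreated). Sall2, Hmga1, Igf2bp2, Igf2bp3 and Dnmt3a were not called. Dnmt3a, the other de novo methyltransferase, had 82.4 CPM at 96 h, against 100 CPM at 0 h. Of 13 DNA methylation genes and 11 genes of the NuRD chromatin complex, a partner of SALL4, 0 were called in any of the 7 comparisons between 2 libraries, against the same 0.272% to 6.27% of all genes. Tet2, which oxidizes methylcytosine, had 8.72 CPM at 96 h, against 5.76 CPM at 0 h, and Mbd2, which binds methylated DNA, had 17.2 CPM at 96 h, against 13.0 CPM at 0 h. Of the NuRD subunits, Mta3 had 17.6 CPM at 96 h, against 14.8 CPM at 0 h, Rbbp7 had 164 CPM at 96 h, against 144 CPM at 0 h, and Rbbp4 had 215 CPM at 96 h, against 243 CPM at 0 h. Of 5 transcripts bound by IGF2BP1, 1 was called at 96 h over 0 h, against 6.27% of all genes in either direction. This was Cd44, a cell surface receptor (7.77 CPM at 96 h, against 3.57 CPM at 0 h). Its log2 ratio of 1.02 lay just past the 2-fold limit. Igf2, a growth factor, had 686 CPM at 96 h, against 506 CPM at 0 h, and Myc had 45.5 CPM at 96 h, against 29.9 CPM at 0 h.

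Of 23 pluripotency and epiblast genes, 6 were analysed. Zic2, a zinc-finger factor, fell at 96 h (13.2 CPM at 96 h, against 29.6 CPM at 0 h). Klf2, a zinc-finger factor of the KLF family, rose (1.52 CPM at 96 h, against 0.434 CPM at 0 h). Its values lay near the 1 CPM filter, with 3.30 CPM in its highest library, so its ratio depends on the CPM added. Pou5f1, the central pluripotency factor, could be read only in the untreated libraries, with 0.956 CPM at 96 h and 0.286 CPM at 0 h, and Nanog had 0.227 CPM at 96 h and 0.254 CPM at 0 h. Among the 6 libraries, Lin28a and Sall4 were thus highest at 0 h, where Pou5f1 and Nanog were under 1 CPM. Of 7 germ cell markers 3 were analysed, and 0 were called in any comparison between 2 libraries, against 0.272% to 6.27% of all genes per comparison. With 3 genes, 0 called is near that share. Prdm1 had 5.65 CPM at 96 h, against 7.36 CPM at 0 h. Tfap2c had 3.64 CPM at 96 h, against 2.94 CPM at 0 h, and Kit had 16.1 CPM at 96 h, against 18.0 CPM at 0 h.

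**Figure D5:**
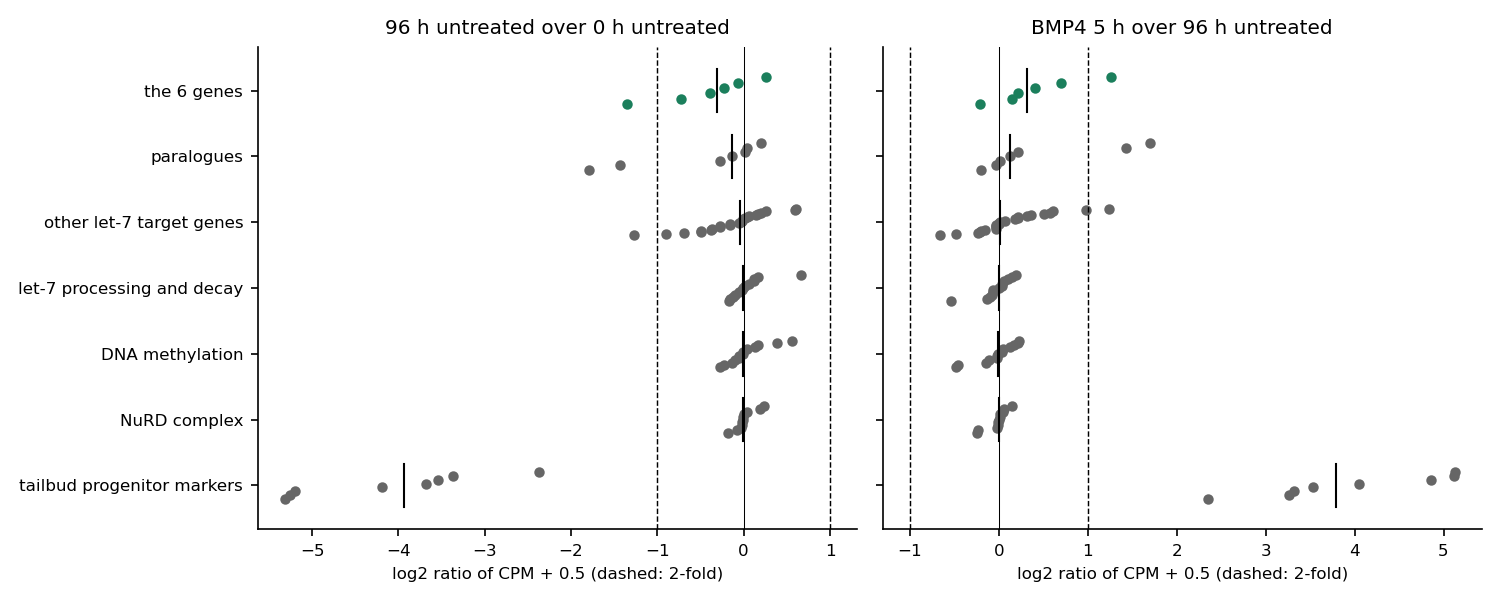
Log2 ratio of each gene (points) and median (black bar) of the 6 genes and of lists of related genes, for 96 h over 0 h (left) and BMP4 5 h over 96 h (right), with dashed lines at 2-fold. The median of the 6 genes is -0.31 at 96 h over 0 h and 0.31 at BMP4 5 h over 96 h, while the let-7 processing, DNA methylation and NuRD lists have medians near 0.

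The genes most like each of the 6 were sought by the smallest root mean square difference of centred log2 levels over the 6 libraries. Candidates were 9549 genes of at least 5 CPM on average. Symbols of predicted or unnamed genes, microRNAs, small nucleolar RNAs, ribosomal RNAs, pseudogenes and related sequences were left out. For Sall4 the nearest genes were Mllt3 (0.04), Alpl and Tnfrsf19, and for Lin28a they were Acot7 (0.03), Rell1 and Skap2. For Lin28b they were Fam120c (0.02), Ing5 and Scfd2, for Hmga2 Zfp821 (0.02), Ss18 and Satb1, for Igf2bp1 Sirt1 (0.02), Srsf4 and Lrrc58, and for Dnmt3b Acsl4 (0.01), Ank2 and Cecr5. With 6 libraries and many genes, close matches are many. None of the 6 was among the 3 nearest genes of another, and the closest of them to Sall4 was Lin28a, at rank 137 of the candidates.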

How the data were processed

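Libraries came from a stranded kit for total RNA, per the labels' protocols. Values are raw counts per gene name, as deposited by the authors. Tools and build in the submitters' processing notes are STAR 2.4.0e, cutadapt, HTSeq, DESeq and mm10, with no role stated, and counting options were not given in the sources used here. Columns of other series numbered 0.

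The 4 growth factor columns hold more values (19415 to 19826) than there are names (19342). Each was aligned in order to both untreated columns (Python 3.11.15, numba 0.67.0), and a gene was kept where its next best row was worse by 5 units or more. This left 17242 genes, and 13993 reached 1 CPM in at least 1 library. All 6 genes were kept, with margins between 21.6 and 30 units. Values between both untreated libraries are favoured by this placement. Scaling used TMM, and the time test used edgeR 4.0.16 in R 4.3.3, with DESeq2 1.42.0 as an alternative. Genes are called at an adjusted p under 0.05, or at 2-fold between 2 libraries. Even numbers make up 65.4% to 70.9% of values from 1 to 20. If mates were counted separately, the counting intervals are too narrow. Named genes are the 6 and the 3 genes nearest to each in profile, among the candidates of mean at least 5 CPM described above. Named too are the 3 of each list of related genes with the largest absolute log2 ratio of 96 h over 0 h. Every called paralogue is named as well. Markers of other cell types are given as sums, and some fibroblast markers also by value or call. Nanog and Pou5f1 were chosen after their values were seen. A result that this rule would name in the pluripotency list is not reported here. The genes and lists were chosen with earlier results of these data known. The scripts were tested on simulated data. P-values measure only the spread between these libraries.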

Additional observations from a re-analysis of the deposited data

How the results depend on the processing

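No paired analysis was possible because each condition has 1 library and the labels give no replicate numbers. No ratio of the 6 genes between 2 libraries changed its call under the 8 alternatives: all 336 recomputed values kept it, and 22 of those not called moved beyond their counting interval. The largest shift was 0.146 on the log2 scale, with total counts in place of TMM, and that scaling moved the median of all genes by 0.137 for BMP4 with FGF4 over BMP4 at 11 h. With total counts 2 values near 0 changed sign, Igf2bp1 for BMP4 with FGF4 over BMP4 at 11 h and Hmga2 for BMP4 5 h over 0 h. Counts over all genes depended on weakly expressed genes. With 2 CPM added, and with genes of at least 5 CPM, the counts were as follows. For 96 h over 0 h, 299 and 353 genes were higher and 187 and 212 lower, against 549 and 329. For BMP4 5 h over 96 h, 194 genes were higher with 2 CPM added, against 325, and 261 and 289 were lower, against 465. For BMP4 11 h over 96 h, 187 and 221 were higher and 14 and 27 lower, against 367 and 44. For BMP4 11 h over BMP4 5 h, 152 and 214 were higher and 18 and 30 lower, against 373 and 49. For FGF8 beside BMP4, 16 and 17 were higher and 4 and 6 lower, against 27 and 11, and 2 were lower with a placement margin of 10 units. For FGF4 beside BMP4, 66 and 111 were higher, against 184, and 55 were lower with 2 CPM added, against 92. For BMP4 5 h over 0 h, 29 and 42 were higher and 3 and 6 lower, against 65 and 17, and 8 were lower with a margin of 10 units. In the time test, 313 genes were higher and 36 lower by edgeR. The numbers were 147 and 18 with genes of at least 5 CPM, 508 and 78 without the filter, 116 and 20 with total counts, and 1303 and 720 with DESeq2. Leaving out each library in turn gave 27 to 2884 higher and 0 to 3299 lower. Of the 6 genes, DESeq2 called 2. Leaving out a library called 0 to 4: 4 without BMP4 11 h (Lin28a, Hmga2, Sall4 and Dnmt3b), 3 without BMP4 with FGF4 11 h (Lin28a, Sall4 and Dnmt3b) and 0 without either 5 h library. There a time has 1 library, which is assumed to vary like the others. The counts over all genes varied widely between these runs too, as given above. The counts of the 6 genes were not set against them run by run. A time effect on the 6 genes was therefore not tested by these runs. The cause of the differences between runs was not tested.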
